A study of Mus musculus with 8 samples.

Results

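The interferon regulatory factors are transcription factors that share a DNA-binding domain and bind promoters and enhancers carrying repeats of the tetranucleotide GAAA. Of the 27179 genes in the deposited table, 8 were selected by symbol, ignoring case: Irf1, Irf2, Irf3, Irf4, Irf5, Irf7, Irf8 and Irf9. Their levels in splenic CD4+ T cells were compared between unstimulated and activated cells and between offspring of cadmium-exposed and control parents.

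RNA sequencing covered 8 libraries in 4 groups, with 2 libraries per group that carry the replicate numbers 6 and 7. All animals were C.Cg-Foxp3tm2Tch/J mice, a strain in which the Foxp3 locus also drives a green fluorescent reporter, and were 8 weeks old. The parents of the Cd groups drank water with 10 ppm CdCl2, which began before mating and which the mothers kept until the litter was born, and control parents drank unspiked water. CD4+ T cells were taken from the spleen by negative selection and purified further by flow sorting, and the study describes them as conventional T cells without CD25. They were lysed without culture (unstimulated, 0 hours) or were activated in culture for 16 hours with beads that carry antibodies to CD3 and CD28. The series has no library of cells cultured for 16 hours without beads. The groups are called Ctr_Unstim, Ctr_Stim, Cd_Unstim and Cd_Stim. The study counts litters as its independent replicates, and the labels carry the numbers 6 and 7 within control and Cd. Within each, an unstimulated and a stimulated library share a number. The litter behind each library is not named in the sources used here, and a p-value measures the spread between these libraries only. Between 15542732 and 25486791 reads per library were counted on genes.

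In T cells, Irf4 is induced by the antigen receptor and acts with AP-1 proteins of the Batf and Jun families, and Irf8, its closest relative, is best known from myeloid cells, dendritic cells and B cells. Irf3 and Irf7 are the factors that nucleic acid sensors activate to switch on type I interferon genes, while Irf9 is part of the complex ISGF3, which carries the interferon signal to its target genes. Irf1 activates genes of antigen presentation and the response to interferon gamma, Irf2 often opposes it, and Irf5 acts downstream of Toll-like receptors, mostly in myeloid and B cells.

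The libraries were first checked against markers of the cells they are labelled with. All 8 T cell markers passed the filter described below, and their summed level was 3127 and 3049 RPKM (reads scaled to transcript length and to the total of the library) in Ctr_Unstim, 2096 and 2135 in Ctr_Stim, 2940.2 and 3025 in Cd_Unstim, and 2198 and 2172 in Cd_Stim. Trac was the most abundant of them. Of 7 B cell markers, 6 were below 1 RPKM in every library and Ms4a1 and Ebf1 were at 0. All 7 dendritic cell markers were below 1 RPKM in every library, with Siglech and Clec9a at 0, and so were 4 of 7 myeloid markers, with Cd14 at 0. Of the 4 NK markers 3 stayed below 1 RPKM everywhere, as did 3 of 4 erythroid markers and Cd8a, whereas Cd8b1 was measured at 9.4 to 11.7 RPKM. Foxp3, which defines regulatory T cells, ranged from 4.48 to 7.69 RPKM over the 8 libraries. Which cells these transcripts came from, after isolation of cells without CD25, was not tested. The other regulatory T cell markers include Il2ra and Ctla4, which activated T cells also express, and these rose after stimulation by 5.76 and 2.35 on the log2 scale in control offspring.

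Before activation, the family was led by Irf1. In Ctr_Unstim the mean level was 94.2 RPKM for Irf1, 53.9 for Irf2, 50.1 for Irf9, 40.1 for Irf7 and 37.9 for Irf3, followed at a distance by Irf4 with 2.64, Irf8 with 1.98 and Irf5 with 1.19. The libraries of Irf7 and Irf3 overlapped in this order, and all other neighbours were apart. The order was the same in Cd_Unstim, except that Irf3 with 40.2 RPKM stood above Irf7 with 37.2 RPKM, and there all neighbours were apart. After activation Irf4 moved to the top with 543 RPKM in Ctr_Stim, ahead of Irf1 with 93.8, Irf2 with 55.6, Irf8 with 53, Irf9 with 32.2, Irf3 with 31.9, Irf7 with 12.3 and Irf5 with 2.67. Here the libraries of Irf2 and Irf8 and those of Irf9 and Irf3 overlapped. Cd_Stim gave the same sequence with Irf3 and Irf9 exchanged and all neighbours apart.

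**Figure D1:**
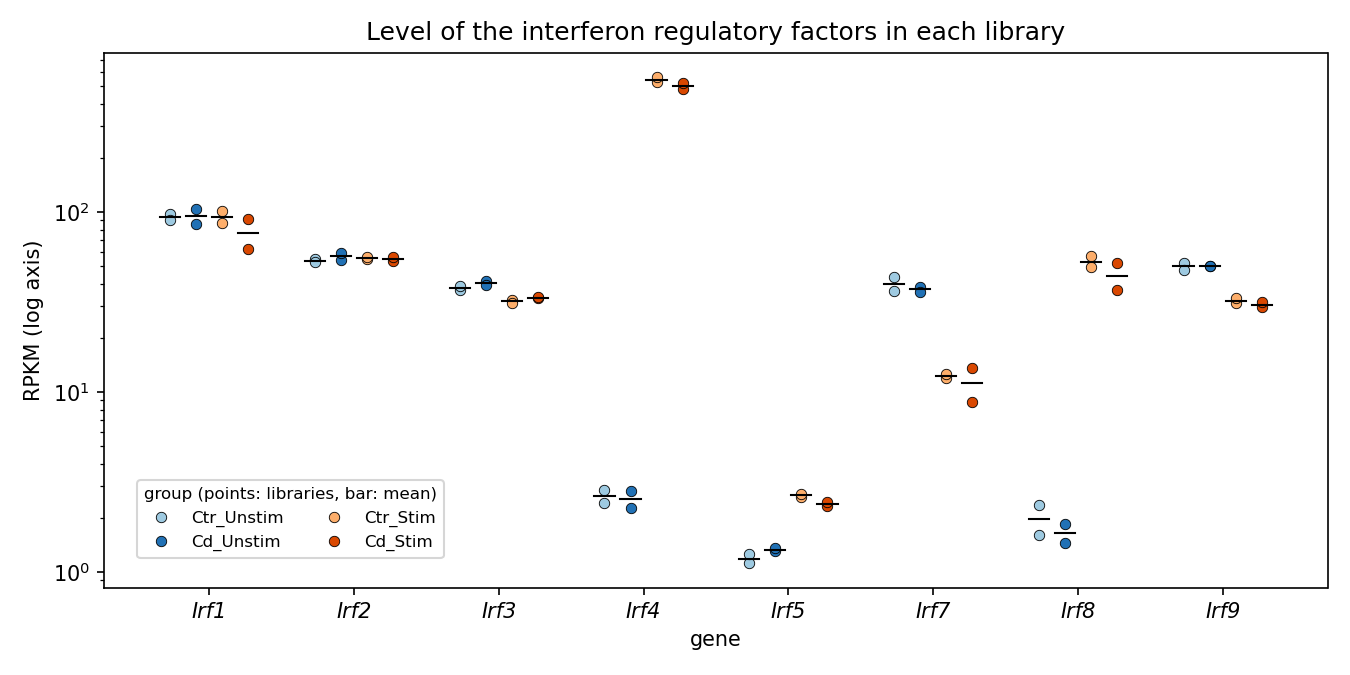
RPKM of each gene (log axis) in the 8 libraries, coloured by group; points are libraries and bars are means of 2 libraries. Irf4 lies between 2.27 and 2.86 RPKM in the unstimulated and between 486 and 561 RPKM in the stimulated libraries, and Irf7 is the gene with the clearest move downward.

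Summed over the 8 genes, the level was 292 and 272 RPKM in Ctr_Unstim, 294 and 277 in Cd_Unstim, 794 and 854 in Ctr_Stim, and 713 and 804 in Cd_Stim. Irf1 made up 30.9% to 35.4% of this sum in the unstimulated libraries and 8.78% to 11.8% in the stimulated ones. Irf4 went from 0.772% to 1.05% of the sum to 65% to 68.2%, and Irf7 from 13.1% to 15% to 1.24% to 1.71%. The 4 stimulated libraries were thus much alike in composition, and so were the 4 unstimulated ones.

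**Figure D2:**
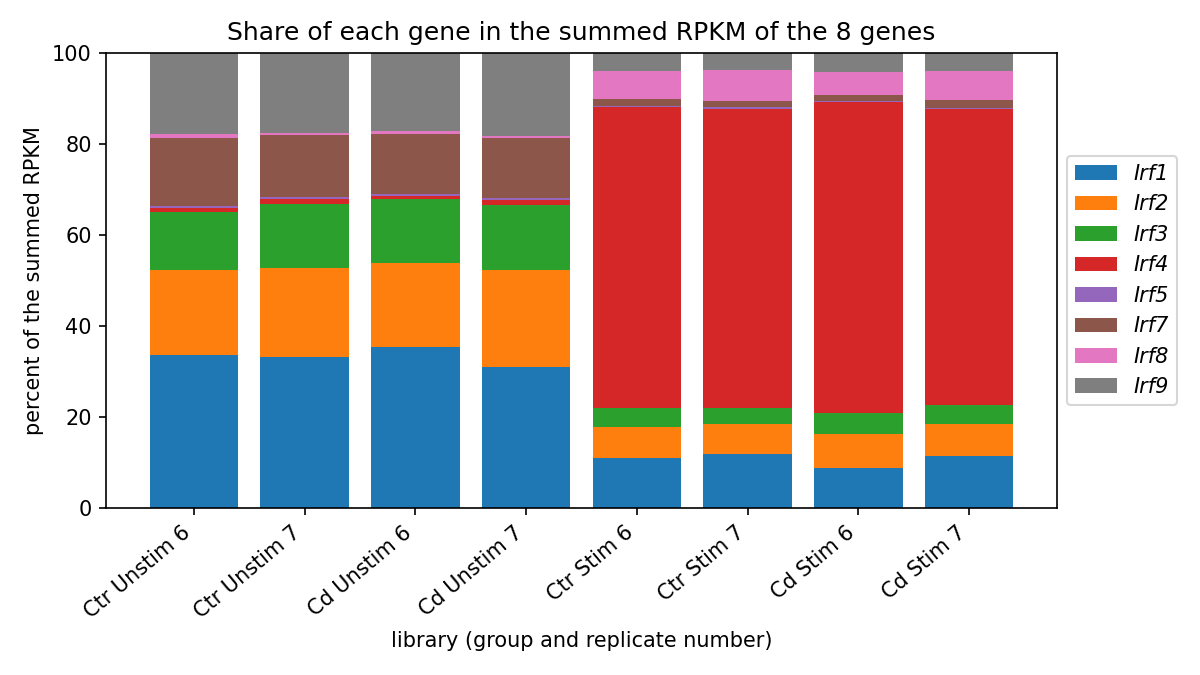
Share of each gene in the summed RPKM of the 8 genes, in percent, for each library. Irf4 fills 65% to 68.2% of the bar in the 4 stimulated libraries and at most 1.05% in the 4 unstimulated ones.

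The question of the first comparison was which genes change when the T cell receptor and CD28 are engaged. All 8 genes had a mean of at least 0.5 RPKM over the 8 libraries and were tested, together with 12605 genes in all that passed this filter. A gene was called at an adjusted p under 0.01 and a change of more than 2-fold. Fold changes were taken from log2(RPKM + 0.1), where the added constant makes those of weakly expressed genes too small, and adjusted p-values are those of limma after Benjamini and Hochberg. In control offspring 3 of the 8 genes were called higher (Irf4, Irf8, Irf5) and 1 lower (Irf7), where 11.5% of all genes tested were called higher and 7.17% lower. In Cd offspring 2 were called higher (Irf4, Irf8) and 1 lower (Irf7), against 11.4% and 7.24% of all genes tested. Without the fold threshold and at an adjusted p under 0.05, 6 of 8 genes passed in either comparison, close to the 64.8% and 65.9% of all genes that did. In bulk RNA, a change in the share of cells that express a gene and a change of RNA per cell cannot be told apart.

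Irf4 (NCBI gene 16364, chr13:30749233-30766981 on GRCm38) is needed for the expansion and effector differentiation of activated T cells. Its level was 2.43 and 2.86 RPKM in Ctr_Unstim, 525 and 561 RPKM in Ctr_Stim, 2.27 and 2.82 RPKM in Cd_Unstim, and 486 and 522 RPKM in Cd_Stim. Every stimulated library lay far above every unstimulated one, and the libraries of a group differed little by comparison. These values rest on 205 to 271 reads in the unstimulated and 38188 to 62344 reads in the stimulated libraries. On the log2 scale Irf4 rose by 7.63 (limma, adjusted p = 7.74e-08, SE 0.11) in control and by 7.58 (limma, adjusted p = 6.28e-08, SE 0.11) in Cd offspring, SE being the standard error, and this ranked 1 of the 12605 genes in either comparison. The ratio of the mean RPKM was 205 and 198. By its mean level Irf4 ranked 9787 among the tested genes in Ctr_Unstim and 70 in Ctr_Stim.

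Irf8 (NCBI gene 15900, chr8:120736358-120756694) shares binding sites and partners with Irf4. It was measured at 2.36 and 1.6 RPKM in Ctr_Unstim and 49.4 and 56.7 RPKM in Ctr_Stim, and at 1.86 and 1.46 RPKM in Cd_Unstim and 36.7 and 52.2 RPKM in Cd_Stim. The stimulated and unstimulated libraries did not overlap, and replicate 6 of Cd_Stim was the lowest of the 4 stimulated libraries. Its increase on the log2 scale came to 4.69 (limma, adjusted p = 1.97e-06, SE 0.22) in control and 4.65 (limma, adjusted p = 2.17e-06, SE 0.22) in Cd offspring, rank 25 and rank 22 among the increases. In unstimulated cells only 74 to 120 reads per library stand behind these levels, against 2172 to 3766 in stimulated cells. Since B cells, myeloid cells and dendritic cells are the best known sources of Irf8, which the selection and sort for CD4+ T cells should remove, their markers are given beside it. The summed B cell markers were 3.68 and 3.12 RPKM in Ctr_Unstim, 4.33 and 4.21 in Ctr_Stim, 3.76 and 3.26 in Cd_Unstim, and 4.89 and 4.89 in Cd_Stim, with Cd79a the most abundant. The summed dendritic cell markers lay between 0.548 and 0.876 RPKM in all libraries, Zbtb46 being the most abundant. For the myeloid markers, led by Cd68, the sum was 7.75 and 7.44 RPKM in Ctr_Unstim, 4.59 and 4.68 in Ctr_Stim, 9.05 and 8.59 in Cd_Unstim, and 6.09 and 4.71 in Cd_Stim. The part of such cells in the change of Irf8 was not tested.

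Irf5 (NCBI gene 27056) was the least abundant gene of the family. Its level was 1.12 and 1.26 RPKM in Ctr_Unstim and 2.61 and 2.73 RPKM in Ctr_Stim, and it was 1.31 and 1.36 RPKM in Cd_Unstim and 2.32 and 2.46 RPKM in Cd_Stim. The stimulated libraries stood above the unstimulated ones in both kinds of offspring. In control offspring Irf5 rose by 1.11 on the log2 scale (limma, adjusted p = 0.00027, SE 0.14), which passed the 2-fold threshold, but it was 0.91 with a pseudocount of 0.5 RPKM and 0.75 with 1 RPKM, below it. In Cd offspring it was 0.79 (limma, adjusted p = 0.00166, SE 0.14), under 2-fold. The responses are not shown to differ, since the test of the difference gave -0.32 (limma, adjusted p = 0.584, SE 0.2). Only 48 to 150 reads per library fell on Irf5, and its neighbour Tnpo3, with a mean of 42.5 RPKM, overlaps it on the opposite strand. As the strand setting of the counting is not given in the sources used here, reads of the overlap cannot be told apart.

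Of the factors of interferon induction and signalling, Irf7 was called lower. Irf7 (NCBI gene 54123, chr7:141263183-141266499), itself a target of ISGF3, was at 43.6 and 36.6 RPKM in Ctr_Unstim and at 12 and 12.6 RPKM in Ctr_Stim. In Cd offspring it was at 38.4 and 36.1 RPKM without and 8.86 and 13.7 RPKM with stimulation. The stimulated libraries lay below the unstimulated ones, while control and Cd libraries overlapped, and the lowest value was again that of replicate 6 of Cd_Stim. Irf7 fell by 1.69 on the log2 scale (limma, adjusted p = 0.000124, SE 0.18) in control and by 1.75 (limma, adjusted p = 0.000107, SE 0.18) in Cd offspring. The myeloid marker sums given beside Irf8 were also lower in the stimulated libraries, and 1 of the 3 myeloid markers tested, Itgam, was called lower. Their part in the change of Irf7 was not tested.

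Irf9 (NCBI gene 16391), the DNA-binding subunit of ISGF3, was at 52.4 and 47.8 RPKM in Ctr_Unstim, 31.3 and 33.2 RPKM in Ctr_Stim, 50.4 and 50.5 RPKM in Cd_Unstim, and 29.7 and 31.6 RPKM in Cd_Stim. All 4 stimulated libraries were below all 4 unstimulated ones. The differences on the log2 scale, -0.63 (limma, adjusted p = 7.49e-05, SE 0.06) in control and -0.72 (limma, adjusted p = 3.93e-05, SE 0.06) in Cd offspring did not reach 2-fold. Irf3 (NCBI gene 54131), which is present in an inactive form and is switched on by phosphorylation, ranged from 37 to 41.3 RPKM in unstimulated and from 31.2 to 33.8 RPKM in stimulated cells. The difference on the log2 scale was -0.25 (adjusted p = 0.00424, limma) in control and -0.26 (adjusted p = 0.00331, limma) in Cd offspring, also under 2-fold.

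Irf1 and Irf2 did not pass the test after stimulation. Irf1 (NCBI gene 16362, chr11:53770014-53778374) was at 98 and 90.3 RPKM in Ctr_Unstim, 87.1 and 101 RPKM in Ctr_Stim, 104 and 85.6 RPKM in Cd_Unstim, and 62.5 and 91.5 RPKM in Cd_Stim. The groups overlapped, apart from the value of 62.5 RPKM in replicate 6 of Cd_Stim, which lay below all 7 other libraries. The log2 fold change was -0.01 (95% interval -0.42 to 0.41) in control and -0.32 (95% interval -0.73 to 0.1) in Cd offspring. The value in Cd offspring was -0.04 without replicate 6 of Cd_Stim and -0.59 without replicate 7 (limma, adjusted p = 0.0107, with a range of 0.0107 to 0.808 over the alternatives). Irf2 (NCBI gene 16363) ranged from 53 to 59.5 RPKM over the 8 libraries. Its log2 fold change was 0.04 (95% interval -0.1 to 0.19) in control and -0.05 (95% interval -0.19 to 0.09) in Cd offspring, and its sign in control offspring turned with median-of-ratios scaling, to -0.03, and with quantile normalization, to -0.1. In Cd offspring quantile normalization gave -0.21 for Irf2 (limma, adjusted p = 0.0136, with a range of 0.0136 to 0.918 over the alternatives), which would pass 0.05 without a fold threshold, and leaving out replicate 7 of Cd_Unstim turned the sign, to 0.02. Quantile normalization moved the median log2 fold change of all genes from 0.07 to -0.033 in control offspring and from 0.05 to -0.043 in Cd offspring. The directions given for Irf4, Irf8, Irf5, Irf7, Irf9 and Irf3 held under both other scalings, but quantile normalization moved Irf3 to -0.42 in control and to -0.44 in Cd offspring.

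**Figure D3:**
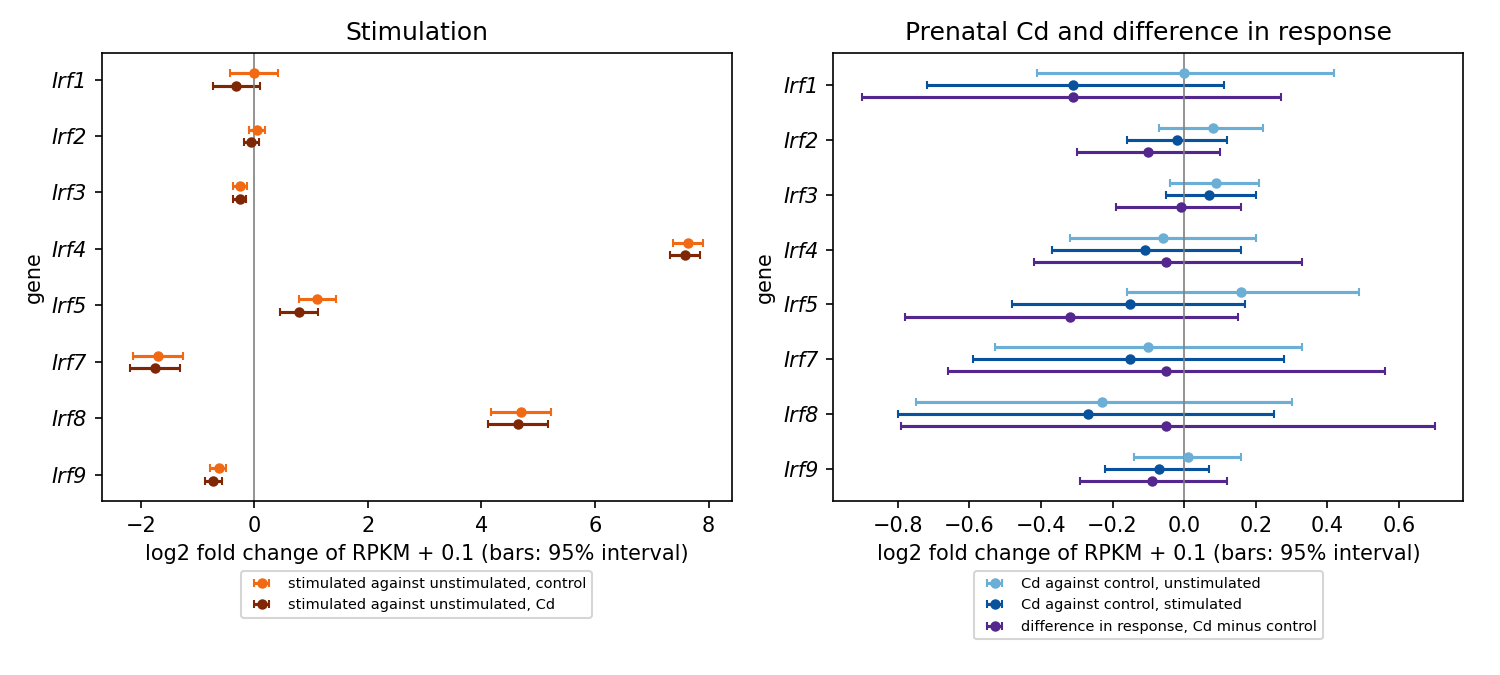
Log2 fold change of RPKM + 0.1 for each gene, with the 95% interval from limma, for stimulation (left) and for prenatal Cd and the difference in response (right). The changes of Irf4, Irf8 and Irf7 after stimulation lie far from 0 in control and Cd offspring, while every interval in the right panel includes 0.

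Prenatal Cd was then compared with control, to ask whether exposure before birth leaves a mark in T cells of the offspring. These comparisons use the same libraries as those of stimulation. None of the 8 genes was called at an adjusted p under 0.05 in unstimulated cells, where 0.896% of all genes tested were, or in stimulated cells, where 0% were. The same held for the difference in response to stimulation, with 0.357% of all genes called. In each of these 3 comparisons limma gave an unadjusted p under 0.05 for 0 of 8 genes, and limma voom on the recovered reads also called 0. Across all 12605 genes, an unadjusted p under 0.05 was reached by 1748 in unstimulated cells, 414 in stimulated cells and 1332 for the difference in response. Stimulated cells had 0 calls over all genes with limma and 0 with voom.

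The sizes that remain possible differ by gene. In unstimulated cells the log2 fold change (Cd against control) ran from -0.23 for Irf8 to 0.16 for Irf5, and in stimulated cells from -0.31 for Irf1 to 0.07 for Irf3. The value of Irf8 in unstimulated cells was 0.04 without replicate 6 of Ctr_Unstim and -0.49 without replicate 7. For Irf4 in stimulated cells it was -0.11 (95% interval -0.37 to 0.16), and for Irf2 -0.02 (95% interval -0.16 to 0.12). Wider intervals belonged to Irf8, with -0.27 (95% interval -0.8 to 0.25), and to Irf1, with -0.31 (95% interval -0.72 to 0.11). The difference in response was -0.05 for Irf4 (95% interval -0.42 to 0.33), -0.05 for Irf8 (95% interval -0.79 to 0.7) and -0.05 for Irf7 (95% interval -0.66 to 0.56), and it was -0.31 for Irf1 (95% interval -0.9 to 0.27). With each library left out in turn these values ran from -0.2 to 0.1 for Irf4, from -0.31 to 0.22 for Irf8, from -0.37 to 0.26 for Irf7 and from -0.59 to -0.04 for Irf1.

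The values of Irf1, Irf7 and Irf8 in stimulated Cd cells also depended on single libraries. Without replicate 6 of Cd_Stim, the log2 fold change against control was -0.03 for Irf1, 0.16 for Irf7 and -0.02 for Irf8, and without replicate 7 it was -0.58, -0.47 and -0.53. Replicate 6 of Cd_Stim was also lower in targets of Irf1 and of ISGF3. Of 18 Irf1 target genes tested, 18 were lower in replicate 6 than in replicate 7 of Cd_Stim, with a median log2 difference of -0.40, and of 20 ISGF3 targets 19 were lower, with a median of -0.50. Over all genes tested, 45.8% were lower in replicate 6 and the median difference was 0.01. The replicate pair of Ctr_Unstim differed in the other direction in the ISGF3 targets, of which 0 of 20 were lower in replicate 6 (median 0.28), while in Cd_Unstim 17 of 20 were lower (median -0.14). In Ctr_Stim replicate 6 was lower than replicate 7 in 17 of 18 Irf1 targets (median -0.16) and in 12 of 20 ISGF3 targets (median -0.05). Of the 18 Irf1 targets, 4 were lower in replicate 6 in Ctr_Unstim (median 0.09) and 9 in Cd_Unstim (median 0.01). The share of all genes tested that was lower in replicate 6 was 50.4% in Ctr_Unstim, 52.4% in Ctr_Stim and 45.8% in Cd_Unstim. These levels therefore vary between libraries of a group, and the source of this variation was not tested.

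The genes around the family were described by lists, each by its counts and its median beside the median of all genes tested, which was 0.07 in control and 0.05 in Cd offspring for stimulation. The counts stand against the 11.5% of all genes called higher and 7.17% called lower in control offspring, and 11.4% and 7.24% in Cd offspring, and nothing is read from counts of 1 or 2 in lists this short. Among 11 partner factors tested, 1 was called higher and 3 lower in either kind of offspring, and the median log2 fold change was -0.20 in control and -0.09 in Cd offspring. The 3 lower ones were the AP-1 genes Jun, from 411 ± 31.1 to 7.15 ± 0.673 RPKM (SD, n = 2) in control offspring, Junb, from 948 ± 90.8 to 119.7 ± 5.46 RPKM (SD, n = 2), and Jund, with a log2 fold change of -2.01. Bach2, a repressor that competes for AP-1 sites, was the one called higher, from 34.3 ± 1.46 to 76 ± 1.09 RPKM (SD, n = 2). The other 7 were not called, among them Batf, with a log2 fold change of -0.25 in control and -0.09 in Cd offspring. Spi1 and Spib, the Ets partners of Irf4 and Irf8 in B and myeloid cells, were below 1 RPKM in all libraries, as was Batf3.

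Of 7 proteins that bind members of the family, 2 were called higher and 0 lower, with medians of -0.14 and 0.01. Swap70, a regulator of Irf4 activity, rose from 1.79 ± 0.00878 to 15.5 ± 0.662 RPKM (SD, n = 2) in control offspring, and Fkbp4, which binds Irf4 and was the most abundant of the list, from 51.3 ± 2.49 to 133 ± 0.367 RPKM (SD, n = 2). Of 11 genes of the receptor signal that leads to Irf4, 2 were called higher, the NF-kappaB subunits Rel and Nfkb1, and 0 lower. In control offspring Rel had a log2 fold change of 2.17 and Nfkb1 of 1.99, and in Cd offspring these were 2.05 and 1.87, against list medians of -0.05 and 0.01.

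Of 12 genes that depend on Irf4 in effector T cells, 8 were tested, 2 were called higher and 1 lower in control and in Cd offspring, and the medians were 0.05 and 0.15. Hk2, a hexokinase of glycolysis, rose from 0.231 ± 0.0984 to 16.4 ± 1.44 RPKM (SD, n = 2) in control offspring. Maf fell by 1.30 on the log2 scale, and Gata3, the most abundant gene of the list, had a log2 fold change of -0.93 and was not called. Il9 was at 0 in all libraries, and Il10, Il21 and Il17a were below 1 RPKM. Il4, also on the list, was at 0.329 and 0.872 RPKM in Ctr_Unstim, 0.991 and 1.64 in Ctr_Stim, 0.732 and 0.75 in Cd_Unstim, and 0.862 and 2.05 in Cd_Stim, with log2 fold changes of 1.09 and 0.77 that were not called.

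On the interferon side, 19 of 21 interferon genes were below 1 RPKM in every library and 16, Ifnb1 among them, were at 0 in all 8. Ifng fell from 8.3 ± 1.03 to 2.98 ± 0.0655 RPKM (SD, n = 2) in control offspring, a log2 fold change of -1.44 (adjusted p = 0.00195, limma), and by 1.87 in Cd offspring. NK cells, which the selection and sort should remove, are another source of Ifng, and the 4 NK markers, led by Klrb1c and with Klra8 at 0, summed to 4.47 and 4.42 RPKM in Ctr_Unstim, 0.147 and 0.293 in Ctr_Stim, 3.26 and 4.41 in Cd_Unstim, and 0.236 and 0.268 in Cd_Stim. Klrb1c made up most of these sums, with 4.35 and 4.29 RPKM in Ctr_Unstim. Ncr1 was at 0 in all libraries except replicate 6 of Cd_Stim, with 0.0311 RPKM. Klrb1c was the 1 NK marker tested and was called lower in control and Cd offspring. The part of NK cells in the fall of Ifng was not tested. With Ifng, 1 of the 2 interferon genes tested was called lower, and the medians were -1.21 and -1.34. Of 13 tested genes of nucleic acid sensing upstream of Irf3 and Irf7, 1 was called higher and 3 lower in control and 0 higher and 3 lower in Cd offspring, with medians of -0.20 and -0.26. Traf6, an adaptor of Toll-like receptors, was the one called higher, with 1.03. The 3 called lower were the RNA sensors Ddx58, Tlr7 and Ifih1, with log2 fold changes of -1.89, -1.35 and -1.08 in control offspring, and the most abundant gene, the kinase Ikbke, had -0.39. Of 8 tested genes of interferon receptors and their kinases, 1 was called higher in control offspring, Jak2 with 1.07, and 0 in Cd offspring, where Jak2 had 0.99, so the share called higher in control offspring was near that of all genes. The medians were -0.48 and -0.43, and the most abundant gene, Jak1, had -0.69 in control offspring.

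The targets of ISGF3 were mostly lower after stimulation. Of 20 tested, 14 were called lower in control and 15 in Cd offspring and 0 higher, where 7.17% and 7.24% of all genes were called lower, with medians of -1.82 and -1.93. Without Irf7 and Irf9, which are on the list themselves, 13 and 14 of 18 were called lower. The antiviral genes Mx1, Mx2 and Oas2 had the largest decreases in control offspring, with log2 fold changes of -3.38, -3.02 and -3.00. Mx1 was at 2.1 and 1.09 RPKM in Ctr_Unstim and 0.0239 and 0.0953 in Ctr_Stim. Mx2 was at 2.96 and 2.23 RPKM in Ctr_Unstim and 0.425 and 0.106 in Ctr_Stim. At such low levels the sizes for Mx1 (SE 0.41) and Mx2 (SE 0.42) depend on the added constant of 0.1 RPKM. Oas2, which makes the activator of RNase L, was at 11 and 10.4 RPKM in Ctr_Unstim, 1.2 and 1.29 in Ctr_Stim, 12.3 and 13.1 in Cd_Unstim, and 0.871 and 1.27 in Cd_Stim. The 4 stimulated libraries were all far below the 4 unstimulated ones. The NK marker Klrb1c and the myeloid marker Itgam were called lower in the same comparisons, beside the marker sums given above. Klrb1c had a log2 fold change of -3.83 in control offspring and -3.62 in Cd offspring, and Itgam had -2.27 and -2.03. Of the other myeloid markers tested, neither was called, Cd68 with -0.63 and -0.79 and Fcgr3 with 0.17 and 0.50. Their part in the change of the ISGF3 targets was not tested.

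The targets of Irf1 split. Of 18 tested, 7 were called higher and 1 lower in control offspring, and 5 higher and 0 lower in Cd offspring, where 11.5% and 11.4% of all genes were called higher, with medians of 0.26 and 0.09. In control offspring the guanylate-binding protein genes Gbp2 and Gbp3 rose by log2 fold changes of 2.79 and 2.30, and Cd274, which encodes the ligand PD-L1, by 2.75. Casp1 was the gene called lower, with -1.23, and B2m, the invariant chain of MHC class I and the most abundant gene of the list, had -0.57. Gbp2 was at 32.6 and 27.7 RPKM in Ctr_Unstim, 189 and 231 in Ctr_Stim, 33.9 and 34.3 in Cd_Unstim, and 102 and 208 in Cd_Stim. Its lowest stimulated value was that of replicate 6 of Cd_Stim.

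**Figure D4:**
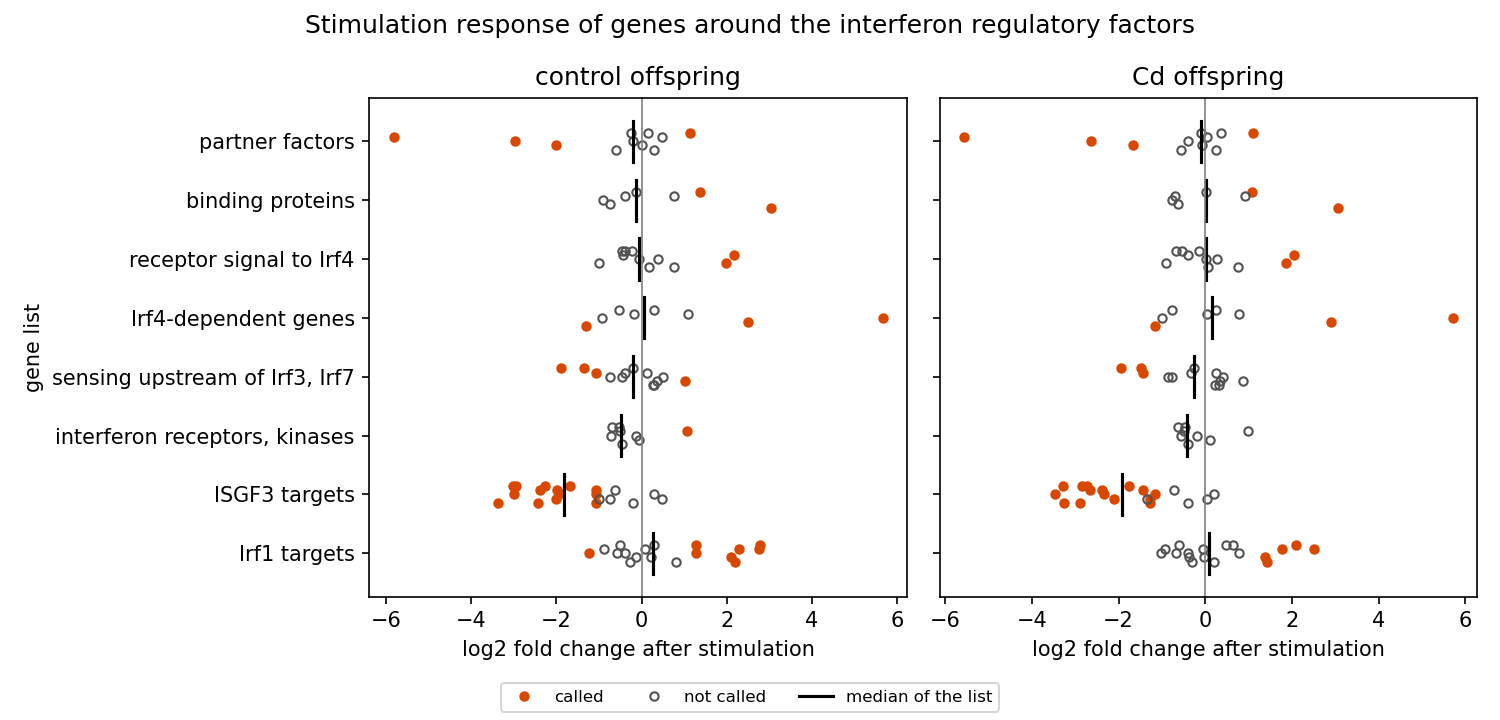
Log2 fold change after stimulation for each tested gene of 8 lists, in control (left) and Cd (right) offspring; filled points were called, and the black bar is the median of the list. The ISGF3 targets lie to the left, with medians of -1.82 and -1.93, and the called targets of Irf1 lie to the right, except Casp1 in control offspring.

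Between Cd and control offspring, 0 of the 93 genes tested on these lists outside the family were called with limma in unstimulated cells, in stimulated cells or for the difference in response. At an unadjusted p under 0.05 there were 4, 4 and 5 with limma, where 1748, 414 and 1332 of all 12605 genes passed. At an adjusted p under 0.05 voom called 1, 0 and 0 of the 93, where it called 212, 0 and 113 of all genes. The 1 was Fkbp4, with a log2 fold change of 0.27 in the limma fit. In stimulated cells all 18 Irf1 targets and 19 of 20 ISGF3 targets had a log2 fold change below 0, with medians of -0.18 and -0.19 against -0.009 for all genes. Without replicate 6 of Cd_Stim, an alternative chosen after seeing the data, these medians were 0.00 and 0.01, and without replicate 7 they were -0.33 and -0.43.

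For each member, the genes with the most similar profile over the 8 libraries were sought among 8252 genes with a mean of at least 5 RPKM, by the Euclidean distance between log2(RPKM + 0.1) profiles centred on their means. Irf4 was closest to Lad1 (distance 0.60), Pdgfb (0.96) and Il2 (1.77), and Irf8 to Phlda3 (0.75), Dusp4 (0.80) and Ptprs (0.81). The nearest genes to Irf7 were Il18r1 (0.36), Dhx58 (0.37) and Isg20 (0.40), and to Irf9 Lgals8 (0.07), Bcl11b (0.10) and Nmi (0.11). Irf1 had Tap1 (0.31), Snord57 (0.32) and H2-T23 (0.37) next to it. Irf2 was nearest to Adam17 (0.06), Atp6v0e (0.07) and Gtf2ird2 (0.10), Irf3 to Ext1 (0.09), Endov (0.09) and Brd8 (0.10), and Irf5 to Ccdc137, Nsun5 and Ubfd1 (0.15 each). The gene nearest to Irf4 was thus farther from it than the nearest genes of Irf1, Irf2, Irf3, Irf5, Irf7 and Irf9 were from theirs.

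The promoters of Irf4, Irf8 and Irf7, the 3 genes called in control and Cd offspring, and of Irf1, abundant without a called change, are shown to set the sequences upstream of called changes beside that of a gene without one. They come from RefSeq (GRCm38.p6), which had promoter windows for all 8 genes, and run from 250 bases before the annotated start to 50 bases after it on the strand of the gene. For Irf8 and Irf1, which have 2 annotated starts each, the upstream one is given. The starts used for Irf7 and Irf5 lie inside the annotated spans of these genes, downstream of their outermost ends. The positions are chr13:30748983-30749282 (plus strand) for Irf4, chr8:120736108-120736407 (plus) for Irf8, chr7:141266375-141266674 (minus) for Irf7 and chr11:53769764-53770063 (plus) for Irf1. Capitals mark matches on either strand to the motifs searched.
Irf4: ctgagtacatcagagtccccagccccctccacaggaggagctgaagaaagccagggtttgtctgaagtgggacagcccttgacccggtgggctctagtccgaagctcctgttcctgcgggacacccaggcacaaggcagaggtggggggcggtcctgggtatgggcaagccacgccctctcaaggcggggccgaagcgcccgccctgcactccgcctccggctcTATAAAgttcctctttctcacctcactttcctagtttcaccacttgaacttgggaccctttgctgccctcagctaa
Irf8: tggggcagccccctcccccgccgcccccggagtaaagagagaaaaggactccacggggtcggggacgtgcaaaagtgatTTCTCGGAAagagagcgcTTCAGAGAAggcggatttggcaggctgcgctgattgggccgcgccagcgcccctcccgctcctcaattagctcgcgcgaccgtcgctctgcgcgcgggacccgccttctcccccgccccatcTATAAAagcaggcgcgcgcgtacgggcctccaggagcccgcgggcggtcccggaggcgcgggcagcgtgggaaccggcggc
Irf7: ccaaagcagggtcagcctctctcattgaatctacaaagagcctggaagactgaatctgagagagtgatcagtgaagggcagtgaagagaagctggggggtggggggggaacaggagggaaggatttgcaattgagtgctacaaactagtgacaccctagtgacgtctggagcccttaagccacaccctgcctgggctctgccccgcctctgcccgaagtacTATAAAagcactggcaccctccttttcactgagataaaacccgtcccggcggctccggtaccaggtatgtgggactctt
Irf1: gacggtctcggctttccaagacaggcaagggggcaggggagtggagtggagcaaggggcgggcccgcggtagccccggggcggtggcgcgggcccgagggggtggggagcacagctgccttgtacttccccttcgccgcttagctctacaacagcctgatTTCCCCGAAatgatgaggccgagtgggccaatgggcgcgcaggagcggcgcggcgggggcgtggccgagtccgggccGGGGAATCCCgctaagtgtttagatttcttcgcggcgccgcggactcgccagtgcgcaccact

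The motifs were TTCNNNGAA, the gamma interferon activation site, present in 8.3% of 32851 promoters of this length, the interferon-stimulated response element, GAAA and GAAA with any 2 bases between them, in 3.44%, the same with GGAA in the first place, the composite of Ets and interferon regulatory factors, in 2.72%, TGANTCA for AP-1 in 7.81%, GGAAAA for NFAT in 23.4%, and the kappaB motif in 8.46%. The TATA box letters TATAAA, in 13.6% of promoters, were added after the sequences were seen. They occur in the windows of Irf4, Irf8 and Irf7, with the first base 26, 31 and 29 bases before the start used, and in none of the other windows of the 8 genes. In Irf7 these letters lie inside the annotated span of the gene. Irf8 holds TTCNNNGAA at 171 and 153 bases before the start, and Irf1 holds it at 90 and the kappaB motif, which reads as a match on both strands, at 13. In the window of Irf2, the Ets composite at 247, the response element at 241, GGAAAA on the minus strand at 226, TTCNNNGAA at 224 and kappaB at 17 bases were found, and some of these matches overlap each other. Irf9 holds GGAAAA on the minus strand at 106 bases before its upstream start, and the windows of Irf3 and Irf5 hold none of the motifs. Irf2 also overlaps the annotated genes Gm31172 and Gm39170. A match describes letters and does not show binding.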

How the data were processed

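Poly(A) RNA libraries of 8 samples of splenic CD4+ T cells were analysed, 2 in each of 4 groups taken from the sample labels. Alignment by the authors used Subread and the mouse build mm10, and featureCounts with RefSeq annotation gave the counts behind the 1 deposited table of log2 values, log2(RPKM + 1) + 0.0001, a scale that was read from the values; versions, the strand setting and the treatment of reads with several alignments are not given in the sources used here. The deposited log2 values were turned back into RPKM, and the spacing of low values gave back whole reads, transcript lengths and the total of each library, for 17794 of 17794 genes above 0 in at least 2 libraries. The totals were 15542732 to 25486791 reads (median 19434588).

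Differences were tested on log2(RPKM + 0.1), as planned for RPKM data, with limma 3.58.1 (R 4.3.3), in 1 model of 4 group means with moderated variances, a trend and 4 residual degrees of freedom, since an exact permutation test of 2 against 2 libraries cannot give a p below 0.333. The 12605 genes whose mean over the libraries reached 0.5 RPKM were tested, the others were left out, and p-values adjusted over all of them. The pipeline was tested on simulated data. Symbols and coordinates were matched to RefSeq (GRCm38.p6) by gene identifier, with 25275 of 27179 matched. Python 3.11.15, numpy 2.4.6, pandas 2.3.3 and matplotlib 3.10.9 were used.

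The members and the gene lists were chosen with earlier results of these data known. The lists are partner factors, binding proteins, receptor signal, Irf4-dependent genes, sensing, interferons, their receptors, ISGF3 targets, Irf1 targets and cell type markers. The named genes are the 8 members, per list up to 4 examples (the called members that changed most and the most abundant one) and the 3 nearest genes of each member; others were named after their values were seen, some genes that this rule takes are not reported here, and TATAAA was searched after the promoters were seen. The alternatives were other pseudocounts, filters, scalings, variance models and thresholds, fits on the libraries of a comparison alone, replicate blocks, voom on recovered reads, and each library left out in turn.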

Additional observations from a re-analysis of the deposited data

How the results depend on the processing

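The members called after stimulation were 4 in control and 3 in Cd offspring. With no fold threshold and an adjusted p under 0.05, 6 were called in either. Pseudocounts of 0.5 and 1 RPKM gave 3 in control offspring, as Irf5 dropped under 2-fold. Each other setting, wherever it was run, gave 4 and 3, and 0 for Cd in unstimulated cells, Cd in stimulated cells and the difference in response. The fit on the libraries of a comparison alone was not run for the difference in response. The block for exposure and number together was not run for Cd against control. Where a library was left out, the remaining one of its group was assumed to vary like the other groups. Of 736 log2 fold changes recomputed for the 8 genes, 2 lost their call (Irf5), 0 gained one, and 32 of genes that were not called changed sign. With each library left out in turn, Irf4 ran from 7.52 to 7.74 in control and from 7.43 to 7.73 in Cd offspring, Irf8 from 4.43 to 4.96 and from 4.39 to 4.9, and Irf7 from -1.82 to -1.57 and from -2.06 to -1.43. The counts over all genes moved more. For Cd in unstimulated cells they were 113, but 65 without a filter, 52 with only the libraries of the comparison, 14 without the trend, 212 with voom, 200 at an adjusted p under 0.1, and 19 (without replicate 6 of Ctr_Unstim) to 105 with a library left out. For the difference in response they were 45, but 28 without a filter, 4 without the trend, 113 with voom, 76 at an adjusted p under 0.1, and 2 (without replicate 7 of Cd_Stim) to 63 with a library left out. In stimulated cells, Cd against control gave 0, 9 without a filter, 2 without the trend, 1 at an adjusted p under 0.1, and 0 to 3 with a library left out. With no fold threshold and an adjusted p under 0.05 in place of 0.01, stimulation gave 8165 in control and 8305 in Cd offspring, against 2353 and 2348. The parts of these 2 changes were not separated. With the replicate number as a replicate block, 4, 3, 0, 0 and 0 members were called, and with a block for exposure and number together 4, 3 and 0; the block gave 76 genes for Cd in unstimulated cells and 36 and 25 for the difference in response. Across all 12605 genes, same-numbered libraries did not deviate together (correlations of 0.06, 0.01, 0.01 and -0.04). Among 20 ISGF3 targets, replicate 6 was lower for 17 in Cd_Unstim and 19 in Cd_Stim, but for 0 in Ctr_Unstim and 12 in Ctr_Stim. Among 18 Irf1 targets these counts were 9, 18, 4 and 17. The labels give an unstimulated and a stimulated library the same number. Whether this number names 1 animal is not given in the sources used here, so the libraries were not treated as pairs. Without replicate 6 or 7 of Cd_Stim, settings chosen after seeing the data, 13 and 16 ISGF3 targets were called lower and 7 and 4 Irf1 targets higher in Cd offspring, and 0 and 1 Irf1 targets lower. Depth limits Irf5, with 48 to 150 reads per library, and Irf8 in unstimulated cells, with 74 to 120.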
